A study of Rattus norvegicus with 24 samples.

Results

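Among 24 newborn rat cortices, 60 genes followed Fos most closely from pup to pup within a litter. They were selected on that relation: of 26404 genes counted, 12596 had at least 1 CPM (the count scaled to a common library total) in every pup and lay outside chromosomes X, Y and MT. The mean of each litter was subtracted from log2(CPM + 0.5), the other genes were ranked by their Pearson r with Fos (ENSRNOG00000008015), and Fosb and Npas4 were left out, so that 12593 genes were ranked and the first 60 are the members. The relation to Fos within litters is therefore a description that carries no test, and so are sex differences within litters, because the same 24 values chose the members.

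RNA-seq was performed on the right cerebral cortex of Sprague Dawley pups at postnatal day 0, taken within 2 h of birth. In the saline pump group, 3 dams were anesthetized on E18 for implantation of a pump filled with saline. In the spontaneous labor group, 3 dams were left unhandled and had no surgery. Both groups delivered vaginally, and each litter gave 2 male and 2 female pups (12 pups per group), so that pups of 1 litter shared a dam and the dam, not the pup, was assigned to the condition.

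Fos is an immediate early gene, a gene whose transcription starts within minutes of a stimulus without the need for new protein. In neurons it is switched on by calcium entry and cyclic AMP through factors bound at its promoter, among them CREB and SRF, and its protein joins a Jun protein to form the transcription factor AP-1. Because its RNA is short-lived, the level of Fos is widely used as a trace of recent stimulation. Bulk cortex was measured, so that fewer cells of a type and less RNA per cell cannot be told apart.

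The total count per pup lay between 12170547 and 19260066, with a median of 14631114.5. Mitochondrial genes held 4.74% to 6.44% of the counts. Female pup 1 of saline pump litter 3 stood farthest from its littermates over all ranked genes, with a root mean square deviation of 0.212 log2 units against 0.197 in the next pup and 0.128 in the median pup. This pup carried 34.4% of the first principal component of the within-litter values. No library repeated another: the lowest chi-square, divided by its degrees of freedom, over all pairs of pups was 2.56.

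A name was in hand for few of the members. The deposited tables give Ensembl identifiers only, and 967 of them could be paired with a name through the part of the study's gene list used here, which is ordered by the study's own comparison of the conditions. Of the 12593 genes ranked, 870 had a name, and of the 60 members 1 did: Tmem209, which encodes a transmembrane protein of the nuclear envelope. The other members are given by rank and by their position on Rnor_5.0. Of 240 symbols on 18 lists of pathways and cell type markers, 25 had an identifier and 20 were among the ranked genes, and none of the 20 was a member.

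Tmem209 was also the only member for which a promoter could be matched. The 250 bases upstream of the more distal of its 2 annotated starts are shown to let a reader look for the elements through which Fos itself is controlled. They come from RefSeq (build GRCr8, minus strand, chr4:60096040-60096289) and are written 5′ to 3′ toward the start.
Tmem209 upstream: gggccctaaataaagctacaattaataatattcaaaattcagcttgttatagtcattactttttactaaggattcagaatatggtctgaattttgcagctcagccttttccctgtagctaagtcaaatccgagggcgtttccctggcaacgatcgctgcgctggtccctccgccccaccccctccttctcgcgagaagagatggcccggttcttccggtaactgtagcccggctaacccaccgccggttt
No letters are in capitals because none of the motifs searched on both strands was present. These were the cyclic AMP response element (TGACGTCA, in 1.59% of 33469 RefSeq upstream windows of the same length), its core (TGACG, which the full element contains, 18.2%), the AP-1 site (TGACTCA or TGAGTCA, 4.05%), the CArG box (1.5%) and the TATA box (TATAAA, 12.9%). The G and C content of the window was 49.2%, against a median of 51.2% over all windows.

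The reference for every value below is Fos. Its counts per pup ranged from 51 to 325 (3.63 to 23.2 CPM), which gives a counting error of 0.080 to 0.202 on the log2 scale. In 8 of the 24 pups the deviation of Fos from its litter mean was smaller than this counting error. The error was taken on log2 of the count without the added 0.5 CPM, so that it is slightly too large beside the deviations. In female pup 1 of spontaneous labor litter 2 the values were too close to order (deviation 0.111, error 0.114). The widest spread of Fos was in spontaneous labor litter 2, where it lay 0.59 below the litter mean in male pup 2 and 0.49 above it in female pup 2.

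The r of the members with Fos ran from 0.873 at rank 1 to 0.662 at rank 60, with a median of 0.707. Over all ranked genes the median r was -0.004, and the 5th and 95th percentiles were -0.425 and 0.448. Of the members, 33 had an r above 0.7 and 4 had an r above 0.8. There was no gap at the limit. The members of ranks 58, 59 and 60 had an r of 0.663, 0.662 and 0.662, and the 3 genes just outside had 0.661, 0.660 (Plekhm3) and 0.656. For Fosb and Npas4, which were left out, r was 0.761 and 0.808.

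The member of rank 1 (ENSRNOG00000002579, chromosome 14, 17888361 to 17918277, minus strand) ranged from 8.54 to 13.9 CPM in the saline pump pups, with a median of 11.6. In the spontaneous labor pups it ranged from 8.82 to 13.7 CPM, with a median of 10.9. The groups overlapped almost entirely, and the spread lay among littermates, where this gene deviated to the same side as Fos in 23 of 24 pups. In spontaneous labor litter 3 it was 0.31 above the litter mean in male pup 1 and 0.30 below it in female pup 2, the pups with the highest and the lowest Fos of that litter.

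The member of rank 2 (ENSRNOG00000011912, chromosome 16, 18822745 to 18837486, minus strand) had an r of 0.826 and lay on the side of Fos in 21 pups. Its lowest, median and highest CPM were 20.3, 24.4 and 30.5 after the saline pump and 20.3, 26.1 and 28.9 after unhandled labor. Saline pump litter 2 held the widest contrast of the saline litters: both males were low (20.3 and 21.5 CPM) and both females were high (28.6 and 30.5 CPM), as Fos was. Rank 3, on chromosome 3 (181834313 to 181967627), was more abundant, with 98.8 to 193 CPM over all pups and an r of 0.820. Rank 4, on chromosome 2 (73220198 to 73389440), fell to 13.1 CPM in male pup 2 of spontaneous labor litter 2 against a group median of 33.5 (r = 0.803).

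Ranks 5 to 12 had r from 0.80 to 0.756 and differed widely in level. The member of rank 6, on chromosome 1 (147327952 to 147484879), had the highest mean CPM of all members (446 CPM, or 71.9 RPKM). It also had the smallest spread within litters, an SD of 0.041 on the log2 scale. Rank 5, on chromosome 9 (24167386 to 24227618), had a mean of 4.04 CPM and a within-litter SD of 0.468. The choice by r thus took in genes with a within-litter SD of a few percent and genes that moved more. Among the pups of saline pump litter 3, rank 5 ran from 2.00 to 6.26 CPM. Over the members, the median number of pups on the side of Fos was 18 of 24, with a range of 14 to 23, against a median of 12 over all ranked genes.

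**Figure D1:**
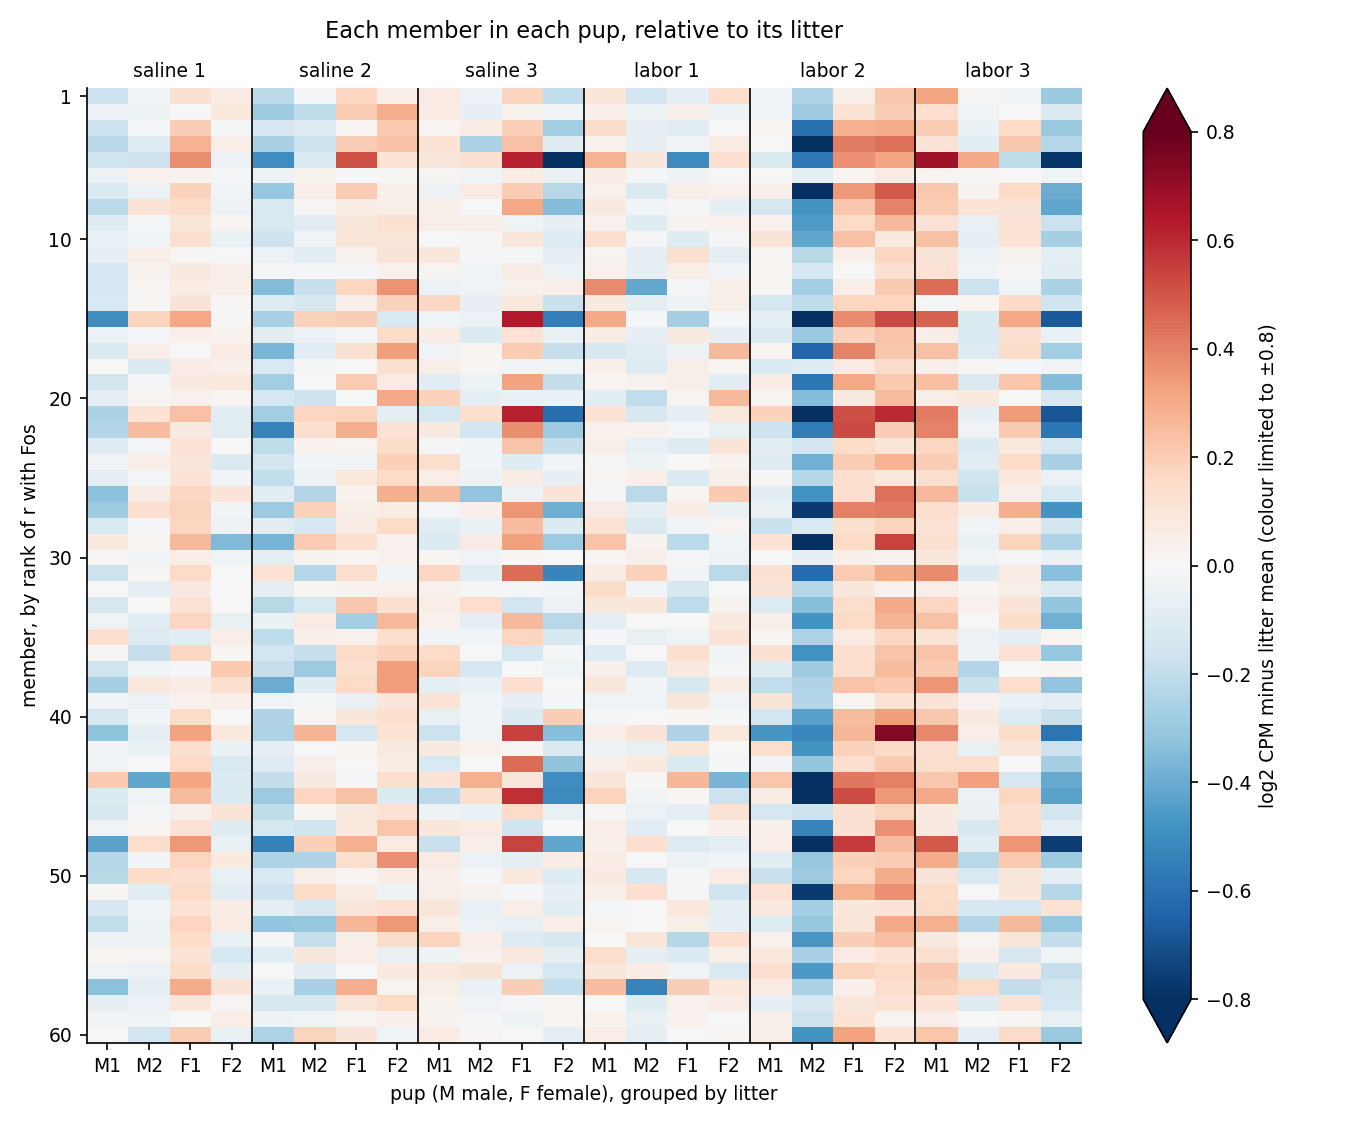
Deviation of each of the 60 members (rows, ordered by r with Fos) from its litter mean in each of the 24 pups (columns, M male and F female), in log2 CPM, with colours limited to ±0.8. Male pup 2 of spontaneous labor litter 2 is below the litter mean for all 60 members, and both females of that litter are above it for all 60.

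The mean deviation of the 60 members per pup followed Fos with an r of 0.872, and both deviated to the same side in 20 of 24 pups. Single litters weighed unequally. In spontaneous labor litter 2, male pup 2 had all 60 members below the litter mean (mean deviation -0.43) and the females had all 60 above it (0.20 and 0.25). This litter held 54.2% of the within-litter variance of the members' mean and 38.2% of that of Fos. Spontaneous labor litter 3 was next, with 19.8% of the members' variance: male pup 1 had 59 members above the mean and female pup 2 had 3.

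The saline pump litters showed smaller deviations. In saline pump litter 2, the members above the litter mean numbered 2 and 25 in the males and 52 and 53 in the females, in the same order as Fos. In saline pump litter 1, female pup 1 had 57 members above the mean and male pup 1 had 8. The Fos deviations of all pups of that litter but female pup 1 were within their counting error. It held the least of the within-litter variance of Fos (3.02%). The litter least variable in the members' mean was spontaneous labor litter 1, with 1.19% of the members' variance and 7.14% of that of Fos. There, too, the Fos deviations of 3 pups were within their counting error.

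**Figure D2:**
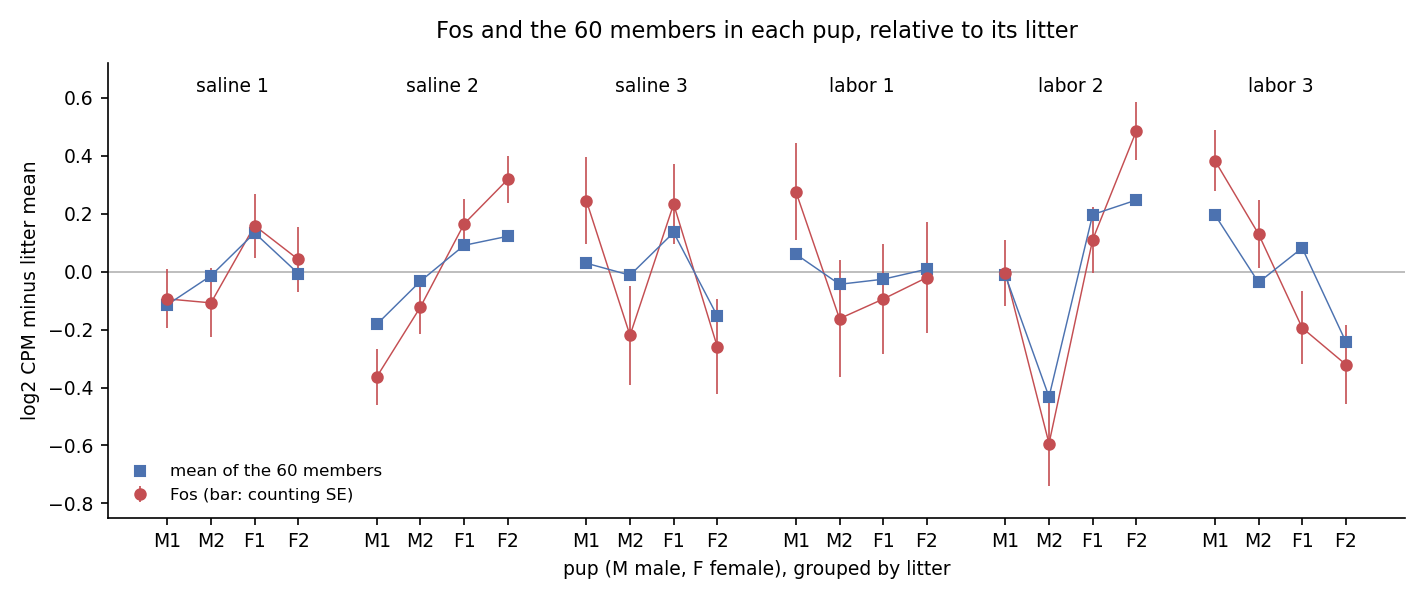
Deviation of Fos (circles, bars are the counting error of 1 SE) and of the mean of the 60 members (squares) from the litter mean in each pup, in log2 CPM, with pups grouped by litter. Fos and the members lie on the same side of 0 in 20 of 24 pups, and the deepest point of both is male pup 2 of spontaneous labor litter 2.

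Within single litters of 4 pups, the median r of the members with Fos was 0.766, 0.860 and 0.620 in saline pump litters 1, 2 and 3. It was 0.519, 0.935 and 0.665 in spontaneous labor litters 1, 2 and 3. The number of members with an r above 0 was 59, 60 and 53 in the saline litters and 50, 60 and 59 in the labor litters. In the 12 saline pump pups the median r was 0.668 (0.208 to 0.916) and in the 12 spontaneous labor pups it was 0.770 (0.566 to 0.906), with all 60 members above 0 in both. Outside spontaneous labor litter 2 the median fell to 0.582 (0.381 to 0.853), also with all 60 above 0. Positive values are what the choice of members fixes, since each of these pups took part in it.

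The exact membership rested on few pups. Ranked again without spontaneous labor litter 2, 20 of the 60 members were still among the first 60 genes, and without male pup 2 of that litter alone the count was also 20. It was 26 without saline pump litter 3 and 35 without female pup 1 of that litter, the pup farthest from its littermates. Without any other litter it lay between 38 and 50. Ranked on the saline pump pups alone, 10 members were among the first 60 genes, and on the spontaneous labor pups alone 17 were. Without spontaneous labor litter 2, the median rank of the 60 was 131.5 and 57 members were within the first 5% of genes, with the lowest at rank 1007. The remaining pups also took part in the choice of members, so that high ranks are largely fixed by it. The members of ranks 1 to 8, 10 and 13 were among the first 60 genes whichever litter was left out, 10 members in all, and the member of rank 1 never fell below rank 3. These were picked out after their values were seen.

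Members differed in how much they moved per unit of Fos. The slope of a member on Fos, in log2 units per log2 unit, had a median of 0.448 and ran from 0.110 to 1.27. It was above 1 in 3 members: rank 5 (1.27), rank 21 on chromosome 6, 108768066 to 108773454 (1.17), and rank 15 on chromosome 15, 55482581 to 55485279 (1.06). Rank 21 went from a group median of 58.2 CPM to 15.4 CPM in male pup 2 of spontaneous labor litter 2. The shallowest slopes, 0.110 at rank 30 and 0.112 at rank 6, belonged to genes with a within-litter SD of 0.046 and 0.041 log2 units.

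Most of the steepest members were short genes. The 10 members with a slope above 0.8 had a median gene span, from first to last annotated base, of 6.71 kb, against 90.8 kb for the other 50, and 6 of the 10 spanned under 10 kb against 3 of the other 50. The limit of 0.8 was set after the slopes were seen, and the split is a description. Their mean levels ran from 4.04 to 54.5 CPM.

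As a whole, the members were long genes. Their median span was 60.4 kb (quartiles 20.03 and 159.9 kb), against 21.3 kb for all ranked genes (8.16 and 53.7 kb), and 44 of the 60 were above that median. The share spanning over 100 kb was 24 of 60 members, against 12.5% of all ranked genes. The 60 genes at the opposite end of the ranking, with an r of -0.619 or lower, had a median span of 13.95 kb, and 23 of them were above the median of all genes. Across all ranked genes, which are not independent replicates, r with Fos and log2 span had a correlation of 0.172. The length counted in exons differed less, with a median of 2664 bases in the members and 2158 in all ranked genes, and so did the number of exons after merging, 12 against 9.

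The members were not set apart by level. Their median of the mean RPKM (CPM per kilobase of exon, so that genes can be compared) was 16.4, against 13.7 for all ranked genes, and 31 of 60 were above that median. The highest mean RPKM were 114 at rank 38 (chromosome 2, 281883336 to 282071757), 99.5 at rank 10 (chromosome 19, 62076973 to 62720152) and 72.1 at rank 48 (chromosome 8, 57926233 to 57934271). The lowest were 0.261 at rank 57, 1.05 at rank 13 and 2.48 at rank 24. Within-litter spread was larger than usual, with a median SD of 0.191 log2 units against 0.122, and 49 of 60 members above the median of all genes. For the 60 genes with the lowest r the median SD was 0.143. The same deviations chose the members, so that this spread is a description. The within-litter SD was a median of 2.99 times the counting error of the member, from 0.844 to 8.98 times. As computed, it was below the counting error in 3 members: rank 13 (SD 0.245, counting error 0.290), rank 57 (0.241 and 0.267) and rank 30 (0.046 and 0.051). The counting error was taken on log2 of the count without the added 0.5 CPM, which makes it too large beside the SD at low levels. Ranks 13 and 57 averaged 1.75 and 2.05 CPM, so that their SD cannot be said to lie below it. For Tmem209 (rank 35) the SD of 0.124 was close to the counting error of 0.122.

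Members were spread over 19 chromosomes, with 8 on chromosome 3 and 6 each on chromosomes 1 and 2. Of the members, 2 lay within 1000 kb of each other, those of ranks 14 and 26 on chromosome 2. The exons of none of the 60 overlapped those of another annotated gene. The plus strand carried 28 members and the minus strand 32.

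Within litters the members correlated with each other, which their choice by r with Fos largely fixes. Over the 1770 pairs of members the median within-litter r was 0.660. After the part linear in Fos was removed it was 0.306, with 1462 pairs above 0, and it was 0.259 outside spontaneous labor litter 2. Fos carries counting error, so a part shared with it can remain, and no other set of genes was treated likewise. The principal components of the within-litter values of all ranked genes held 20.7%, 12.5% and 11% of their variance. The members' mean had an r of 0.045 with the first, 0.848 with the second and 0.421 with the third. Of the members, 27 were closer to the second component than to Fos, a count not made for other genes. Fos had an r of 0.691 with the second component. Spontaneous labor litter 2 carried 48.4% of the second component and female pup 1 of saline pump litter 3 carried 0.0239%.

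Depth went weakly and negatively with the members. Within litters, the members' mean had an r of -0.283 with log2 total count, 0.025 with the number of genes detected, 0.095 with the mitochondrial percentage and 0.003 with the percentage held by the 100 most abundant genes. The same values for Fos were -0.284, 0.008, -0.048 and -0.140. The part of these measures in the members' deviations was not tested.

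Other genes with a name stood in varied relation to Fos. The named genes ranked next after the members were Plekhm3 (rank 62), Prkca, a protein kinase C gene (rank 66, r = 0.652), and Sp9, a transcription factor gene of developing interneurons (rank 123, r = 0.618). Of the activity-regulated genes on the lists, r was 0.410 for Dusp5 and 0.330 for Gadd45g, and 0.062, -0.131 and -0.182 for Ier3, Dusp4 and Sik1. Of the ranked markers of other cell types, r was 0.020 and -0.0665 for the endothelial genes Cldn5 and Slco1a4. It was 0.061 for the microglial gene C1qc, and -0.046 and -0.022 for the radial glial and astrocytic genes Vim and Aqp4. For the mural cell gene Abcc9 it was -0.0168, and for the red blood cell genes Hba-a3 and Slc4a1 it was -0.0865 and 0.0806. It was lower, at -0.276, for the dividing-cell gene Bub1. All 20 list genes ranked lay between -0.277 (Calr) and 0.410. No marker of cortical neurons on the lists had an identifier, so that the tissue label was not checked against them.

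The members did not follow Fos from litter to litter. Litter means were subtracted before the members were chosen, so that these values took no part in the choice. The litter mean of Fos, in log2 CPM, was 3.53, 4.25 and 2.75 in saline pump litters 1, 2 and 3 and 2.21, 3.29 and 3.36 in spontaneous labor litters 1, 2 and 3. The mean level of the 60 members in the same litters was 5.26, 5.23 and 5.20, and 5.31, 5.10 and 5.22. Fos thus spanned 2.04 log2 units between litters and the members 0.205. Among littermates the members' mean spanned 0.680 units. That range is over single pups rather than litter means, and the same deviations chose the members, so that the 2 ranges are not comparable. The litter with the lowest Fos had the highest members' mean.

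Over the 6 litter means the members' mean had an r of -0.239 with Fos. Of the 60 members, 23 had a between-litter r above 0, against 44.7% of all 12593 ranked genes. Their median was -0.124, against -0.121 for all ranked genes. A between-litter r above 0.5 was found in 4 members (22.9% of all genes) and one below -0.5 in 9 (32.0% of all genes). The extremes were -0.952 at rank 6 and 0.818 at rank 41, on chromosome 18 (27369166 to 27372951). Without spontaneous labor litter 1, the median over the members was 0.241, and without female pup 1 of saline pump litter 3 it was -0.050. Fosb and Npas4 had a between-litter r with Fos of 0.984 and 0.946.

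**Figure D3:**
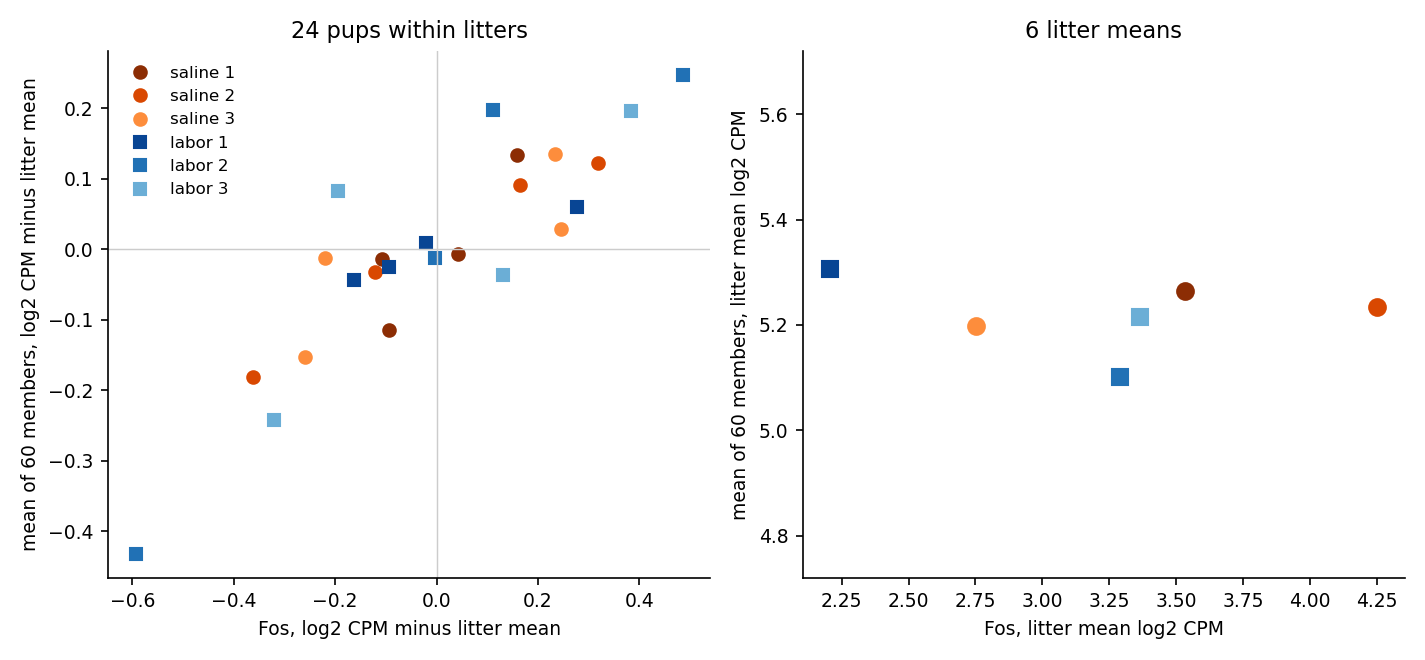
Left, mean deviation of the 60 members against the deviation of Fos in 24 pups, both in log2 CPM minus the litter mean, with circles for saline pump and squares for spontaneous labor litters (r = 0.872, a relation the choice of members fixes). Right, mean level of the members against Fos for the 6 litter means in log2 CPM, where Fos spans 2.04 units and the members 0.205 (r = -0.239).

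**Figure D4:**
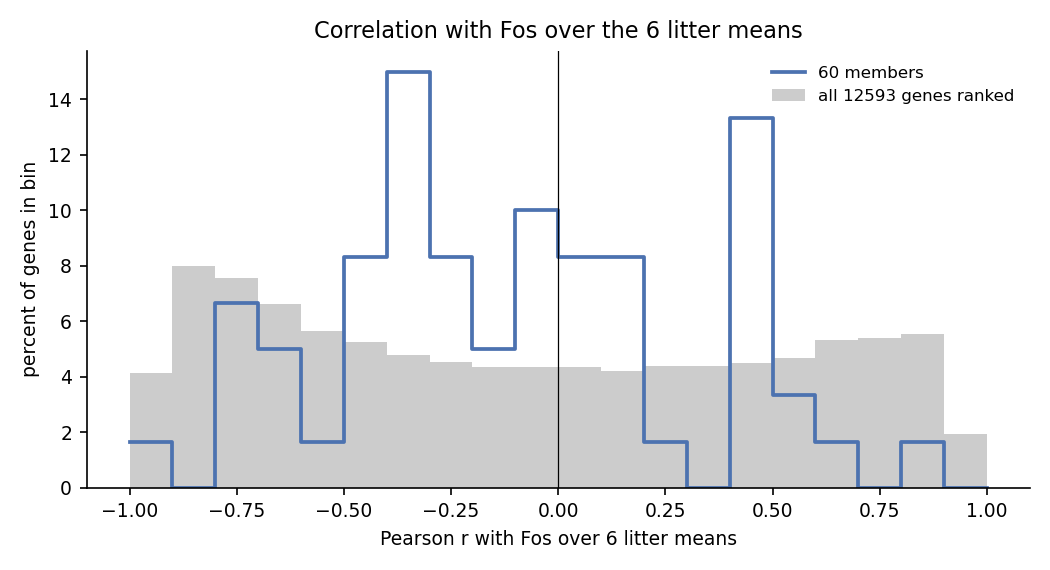
Percent of genes by Pearson r with Fos over the 6 litter means, for the 60 members (line) and all 12593 ranked genes (bars). The members centre on -0.124 and all genes on -0.121, and few members reach the extremes.

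The condition compared dams with and without anesthesia and surgery on E18. It was tested with edgeR's quasi-likelihood test on counts summed per litter (3 against 3 litters, 14348 genes, Benjamini-Hochberg adjustment, spontaneous labor minus saline pump). Of the 60 members, 0 had an adjusted p of 0.05 or lower, as did 0% of all genes tested, and DESeq2 on the same sums also gave 0. At an unadjusted p under 0.05, edgeR gave 240 genes and DESeq2 218. In edgeR, no member was higher in spontaneous labor at that level, against 0.795% of all genes, and 1 member was lower, against 0.878%. A share this close to that of all genes is no result about the members.

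The members' fold changes centred on 0. A log2 fold change above 0 was found in 28 of 60 members and in 50% of all genes, and the median was -0.01 for the members and 0.00 for all genes. They ran from -0.23 to 0.18, and some of the other genes tested lay further out on both sides. The quartiles were -0.06 and 0.05 for the members and for all genes tested. The genes tested passed a looser CPM minimum than those ranked and included chromosomes X, Y and MT. All 3 spontaneous labor litter means were above all 3 saline pump means in 1 member, against 2.94% of all genes, and below them in 3 members, against 3.19%. The first was rank 22 and the others were ranks 29, 35 (Tmem209) and 39, of which 29 and 39 are named after their values were seen.

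**Figure D5:**
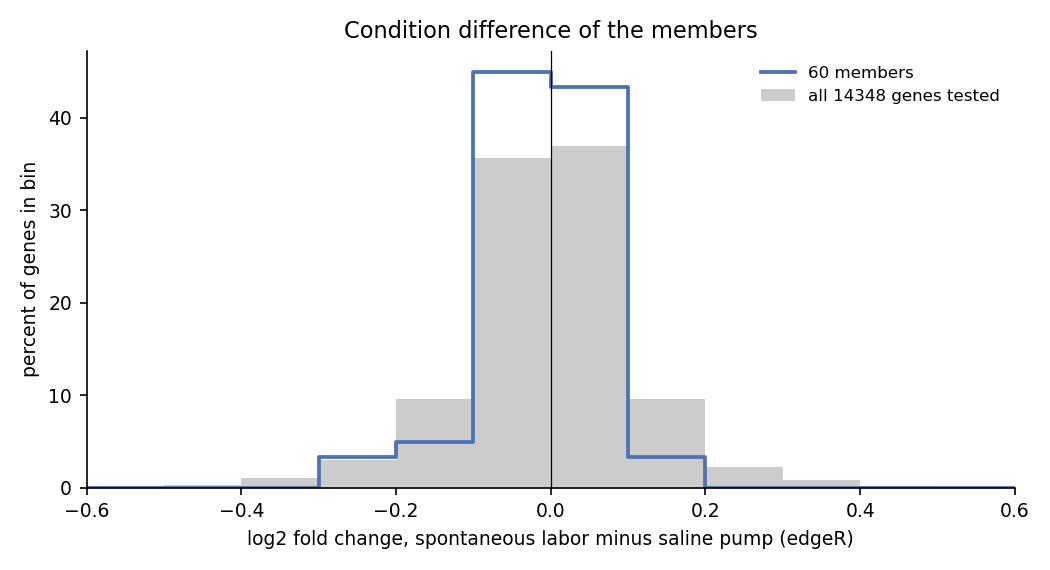
Percent of genes by log2 fold change of spontaneous labor minus saline pump (edgeR, counts summed per litter), for the 60 members (line) and all 14348 genes tested (bars), shown from -0.6 to 0.6. The members lie between -0.23 and 0.18 around a median of -0.01.

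Tmem209 (rank 35, ENSRNOG00000028219, chromosome 4, 57558247 to 57585192, minus strand) had the smallest p of the members. It ranged from 9.19 to 11.7 CPM in the saline pump pups, with a median of 10.3, and from 7.02 to 9.88 CPM in the spontaneous labor pups, with a median of 8.81. Saline pump litters 1 to 3 averaged 3.40, 3.48 and 3.44 log2 CPM and labor litters 1 to 3 averaged 3.25, 3.15 and 3.27, which do not overlap. The log2 fold change was -0.23 (SE 0.091, edgeR p = 0.0274, adjusted p = 0.99992), which did not pass the threshold. Its name was in hand through a list ordered by the same comparison, so that it is not independent evidence of a direction.

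The other members with small p-values lay further from the threshold. Rank 22, on chromosome 9 (43896224 to 43935094), had a median of 11.5 CPM (7.83 to 14.3) in the saline pump pups and 13.5 CPM (7.74 to 17.7) in the labor pups, with a log2 fold change of 0.18 (edgeR p = 0.0745). Rank 36, on chromosome 18 (79912225 to 79915437), had a log2 fold change of -0.12 (edgeR p = 0.109), and rank 15 one of -0.23 (edgeR p = 0.111), from 8.55 ± 2.20 CPM (SD, n = 12 pups) in saline pump to 7.23 ± 2.17 CPM (n = 12). Rank 43 had -0.12, which was -0.06 without female pup 1 of saline pump litter 3 and -0.01 with surrogate variables over 24 pups. Rank 41 had -0.19, which turned to 0.04 without saline pump litter 2. On the higher side, ranks 2 and 6 had 0.09 and 0.05, and ranks 20 and 33 had 0.10 and 0.07, which turned to -0.0068 and -0.0024 without spontaneous labor litter 1. Every member had an adjusted p of 0.99992 in edgeR, and 3 litters per group limit what could be detected.

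Fos itself was lower by 0.56 log2 units in the spontaneous labor litters, with litter means of 2.95 ± 0.647 (SD, n = 3 litters) against 3.51 ± 0.750 (n = 3), and the groups overlapped. The exact two-sided permutation test over litters gave p = 0.4, where 0.1 is the smallest p it allows. The edgeR log2 fold change was -0.60 (SE 0.386, p = 0.149, adjusted p = 1.00). Left out in turn, single litters moved it from -0.91 to -0.13.

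Within litters, the members' sex difference went with that of Fos, which the choice of members largely fixes. The female minus male difference of the members' mean, in log2 units, was 0.13, 0.21 and -0.02 in saline pump litters 1, 2 and 3 and -0.02, 0.44 and -0.16 in spontaneous labor litters 1, 2 and 3, with 2 pups of each sex per litter. Members higher in females numbered 55, 57 and 27 in the saline litters and 33, 60 and 6 in the labor litters. These counts were not made over all genes. The same difference of Fos was 0.20, 0.48, -0.03, -0.11, 0.60 and -0.51. Females were thus higher in 3 litters, males were higher in 1 and the others were near 0. The mean over litters was 0.099 ± 0.213 (SD, n = 6 litters), smaller than its spread, and without spontaneous labor litter 2 it was 0.030.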

How the data were processed

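The authors demultiplexed reads with bcl2fastq, aligned them to Ensembl Rnor_5.0 with STAR 2.0.4b and counted uniquely aligned, unambiguous reads per gene with featureCounts. The strand setting is not given in the sources used here. Libraries were primed with oligo-dT, and RNA had a RIN above 9.5. The counts are deposited without normalization. The deposited CPM are these counts scaled to a common total of counted reads, and the deposited RPKM are CPM per kilobase of exon. The labels gave condition, sex and pup number, and the litter was read from the identifiers of the deposited files.

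Members were ranked with scipy 1.17.1, pandas 2.3.3 and numpy 2.4.6, and figures were drawn with matplotlib 3.10.9, in Python 3.11.15. The members and gene lists were chosen with earlier results of these data known. Condition was tested with edgeR 4.0.16 in R 4.3.3 on counts summed per litter, because the dam was assigned to the condition, with TMM scaling, genes above 1 CPM in at least 4 pups and a threshold of 0.05. The alternatives were fits of 24 pups with and without 6 surrogate variables (sva 3.50.0), limma 3.58.1 with the litter as a random effect (estimated correlation 0.259), DESeq2 1.42.0, other scaling and filters, and each litter left out. Both the ranking and the fit were checked on simulated data. The pups simulated for the fit were drawn independently, with no litter effect, so that check does not cover the litter correlation of 0.259. Nothing states that RNA was extracted or sequenced separately by litter, so litter and handling cannot be told apart.

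Genes named were, by rule, the 12 members of highest r, those on a list, the 3 on each side of the limit, the 5 with the smallest p in each direction, the 3 steepest, and the 3 highest and 3 lowest in RPKM. Some genes given fall outside this rule, among them Prkca and Sp9, the named genes ranked next after Plekhm3. Fos is described at greater length than the 2 sentences the rule allowed, as the reference of every value. Names of members were looked up by identifier only, and the study's own fold changes and p-values were not used. Counting errors cover sampling of reads only and were taken on log2 of the count, without the 0.5 CPM added elsewhere.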

Additional observations from a re-analysis of the deposited data

Results flagged for a closer look

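The highest and the lowest pup of a group were compared with the others by Dixon's criterion at 95%. Total count, Fos and the mean of the 60 members were examined in each of the 6 litters and in the 4 groups of 6 pups that share condition and sex, and the deviations of Fos and of the members' mean from the litter mean in the latter, 38 examinations in all. Chance gives about 1 flag in 20, and 3 were found. The members' mean was 4.97 log2 CPM in female pup 2 of spontaneous labor litter 3, below the 5.28 of the next female of that condition. The total count of male pup 1 was 19260066 in saline pump litter 1, against 14555341 in the next littermate, and 15451777 in saline pump litter 2, against 14006062. In both litters that male was the lowest of its litter in the members' mean, at -0.11 and -0.18 log2 units from the litter mean. The part of depth in this was not tested.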

How the results depend on the processing

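Of the 60 members, the number still among the first 60 genes was 59 with TMM-scaled CPM, 57 with a pseudocount of 2 CPM, 55 with litter and sex means subtracted and 58 with the CPM minimum applied in 4 pups. It was 37 with Spearman correlation, 35 without female pup 1 of saline pump litter 3 and 22 without the 2 pups farthest from their litter mean in Fos, both of spontaneous labor litter 2. It was 20 without male pup 2 of that litter (an alternative added after the data were seen), 10 in saline pump pups alone and 17 in spontaneous labor pups alone. Leaving out 1 litter gave 20 to 50. For the condition, no member passed the adjusted threshold under any of 15 alternatives. With surrogate variables over 24 pups, 5 members had an unadjusted p under 0.05 higher and 2 lower, and 1 of all genes passed the adjusted threshold. With 1 litter left out, 0 to 2 members were lower at that level: 0 without saline pump litter 1 or spontaneous labor litter 2, and 2 without saline pump litter 3 or spontaneous labor litter 1. The median log2 fold change of the members stayed between -0.05 and 0.04, and Fos between -0.91 and -0.13 with adjusted p from 0.409 to 1.00. Of the 10 members compared individually, 3 changed sign: rank 41 to 0.039 without saline pump litter 2 (-0.311 to 0.039 over litters left out), and without spontaneous labor litter 1 ranks 20 and 33 to -0.0068 (-0.0068 to 0.197) and -0.0024 (-0.0024 to 0.109). The median between-litter r lay between -0.292 and 0.241 over litters left out and was 0.005 with TMM-scaled CPM. Both conditions share litter numbers and pup numbers, but the dams differ, and deviations of same-numbered litters from their condition means had correlations across genes of -0.268, 0.125 and -0.199, so that the numbers pair no samples and no litter correlated best with its own number. With the litter number as a replicate block, 0 members were lower at an unadjusted p under 0.05 and 0 passed the adjusted threshold, and with sex and pup number as a block over 24 pups these counts were 1 and 0 (both alternatives added after the data were seen). With 51 to 74 Fos counts per pup in spontaneous labor litter 1, the litter with the lowest Fos, counting error limits how its littermates can be ordered.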
